A study of Homo sapiens with 12 samples.

Results

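KGN and COV434 are the 2 human tumor cell lines in which the study tested 77-39, an inhibitor of the mitochondrial deacetylase SIRT3. Compared here are the transcriptomes of the 2 lines without the compound. The comparison takes the 3 control libraries labelled KGN and the 3 control libraries labelled COV434, 6 of the 12 libraries in all, and the 13098 of 58735 annotated genes whose FPKM (fragments per kilobase of gene, scaled to the depth of the library) averaged at least 1 over these 6 libraries. KGN is described by the study as a line of adult-type and COV434 as a line of juvenile-type granulosa cell tumor (GCT), and the labels give both the genotype WT and the same tissue, ovarian. According to the labels, both lines grew in DMEM/F-12 without phenol red and with 10% heat-inactivated serum. The study instead names DMEM with 10% fetal bovine serum and antibiotics as the medium. The labels also repeat a 72 h exposure to 77-39 on every library. The title of a library, control or treated, was therefore used to place it. The remaining 6 libraries, 3 of each line after 77-39, served as a second set in which the same line difference could be read.

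Granulosa cells surround the oocyte, make estradiol and inhibin, and express AMH and the receptor for FSH. Their identity depends on FOXL2, a forkhead transcription factor that keeps the ovarian fate and of which a single recurrent missense change marks adult-type GCT. The SWI/SNF complexes slide and evict nucleosomes with 1 of 2 exchangeable ATPases, SMARCA4 or SMARCA2, and loss of both proteins is the known hallmark of another ovarian tumor of young women, small cell carcinoma of the hypercalcemic type.

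The reads behind the FPKM could be recovered by multiplying with gene length, and gave 15920486 to 18135160 reads on genes in the 6 untreated libraries. More than 3 reads in at least 1 library were found for 20946 genes in the KGN-labelled and for 19201 genes in the COV434-labelled libraries, of which 16474 were shared. Replicates were closer to each other in KGN (correlation of log2(FPKM + 1) across genes 0.987 to 0.992) than in COV434 (0.957 to 0.987), while libraries of different lines gave 0.554 to 0.581; genes are not independent replicates, so these values are descriptions. COV434 replicate 1 stood apart from its 2 partners, with 3147 (24%) of the tested genes more than 0.5 log2 units away from the mean of the other 2, against 1921 (14.7%) and 518 (3.95%) for replicates 2 and 3 and 305 to 455 in KGN. Mitochondrially encoded genes took 7.3 to 7.68% of the reads in KGN and 8.0 to 9.63% in COV434, with the highest share in the same replicate 1. The labels do not say whether the 3 libraries of a line came from separate cultures, so the p-values measure the spread between these libraries, which may be technical, and each line is 1 cell stock.

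The defining markers went against the line names, since FOXL2 expression is known from KGN and loss of SMARCA4 and SMARCA2 from COV434. Whether the labels of the 2 lines were exchanged was not tested and cannot be told from these values alone, so KGN and COV434 stand for the labels throughout, and every direction rests on them. FOXL2 (chromosome 3, 138944224 to 138947140, GRCh38) was at 0, 0 and 0.0174 FPKM in the KGN-labelled libraries, 1 read in all, and at 12.8, 13 and 11.5 FPKM in the COV434-labelled ones, a log2 difference of -3.74 (SE 0.080, adjusted p = 9.08e-08). SMARCA2 (chromosome 9, 1980290 to 2193624) was at 0.0087, 0.0063 and 0.0082 FPKM in KGN and 6.48, 5.23 and 5.25 FPKM in COV434 (-2.72 (SE 0.10, adjusted p = 9.47e-07)). SMARCA4 (chromosome 19, 10960825 to 11079426), the other ATPase, was at 2.56, 2.58 and 2.6 FPKM in KGN and 12.6, 6.51 and 8.51 FPKM in COV434 (-1.47 (SE 0.21, adjusted p = 7.34e-04)). For all 3 genes every library labelled KGN was below every library labelled COV434, and the forkhead factor and SMARCA2 were close to the detection limit in the former. RNA levels do not show whether a protein is present, and the sequence of the transcripts, in which the FOXL2 change would be seen, was not analysed here.

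Of the 18 granulosa cell markers listed, 9 reached the expression limit and all 9 differed between the lines at an adjusted p under 0.05, 3 higher in KGN and 6 higher in COV434, where 69.0% of all tested genes differed (32.6% higher in KGN and 36.4% higher in COV434). FOXL2, INHBB, GATA6, WT1 and NR5A2 were near 0 in 1 line and reached the limit only through the other. Their being called was thus largely set by the limit. The inhibin and activin subunit INHBB was at 0.0168, 0 and 0 FPKM in KGN and 8.0, 6.32 and 6.53 FPKM in COV434, and the inhibin subunit INHA at 0.985, 0.968 and 1.22 and 4.27, 4.77 and 5.22 FPKM. The transcription factor GATA6 followed the same order, with 0.0137, 0.0148 and 0 FPKM in KGN and 6.21, 4.95 and 6.48 FPKM in COV434. AMH, the anti-Müllerian hormone, and KITLG, the ligand of KIT, were detected in both lines and higher in COV434, with log2 differences of -0.73 and -0.85. The opposite order held for WT1, a zinc finger factor of the early gonad, with 56.4, 61.4 and 61.3 FPKM in KGN and no read in COV434, a difference of at least 1372-fold against 3 reads per library. NR5A2, an orphan receptor that drives ovarian steroid genes, was at 45.2, 48.1 and 47.9 FPKM in KGN and 0.00798, 0.00778 and 0.0158 FPKM in COV434. HSD17B1, which makes estradiol from estrone, was higher in KGN by 0.77 on the log2 scale. ESR2, at 1.74 FPKM in KGN and 0.0446 FPKM in COV434, missed the limit for a test. The FSH and LH receptors FSHR and LHCGR and the nuclear receptor NR5A1 had no reads in any of the 6 libraries, although LHCGR lies almost wholly inside another annotated gene, so that its reads may have been left unassigned, and GATA4, AMHR2, FST, INHBA and CYP19A1 (aromatase) had means of at most 0.106 FPKM. Neither line carried the whole marker list, since 8 of the 18 genes were at or under 3 reads in all libraries of KGN and 7 in those of COV434.

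**Figure D1:**
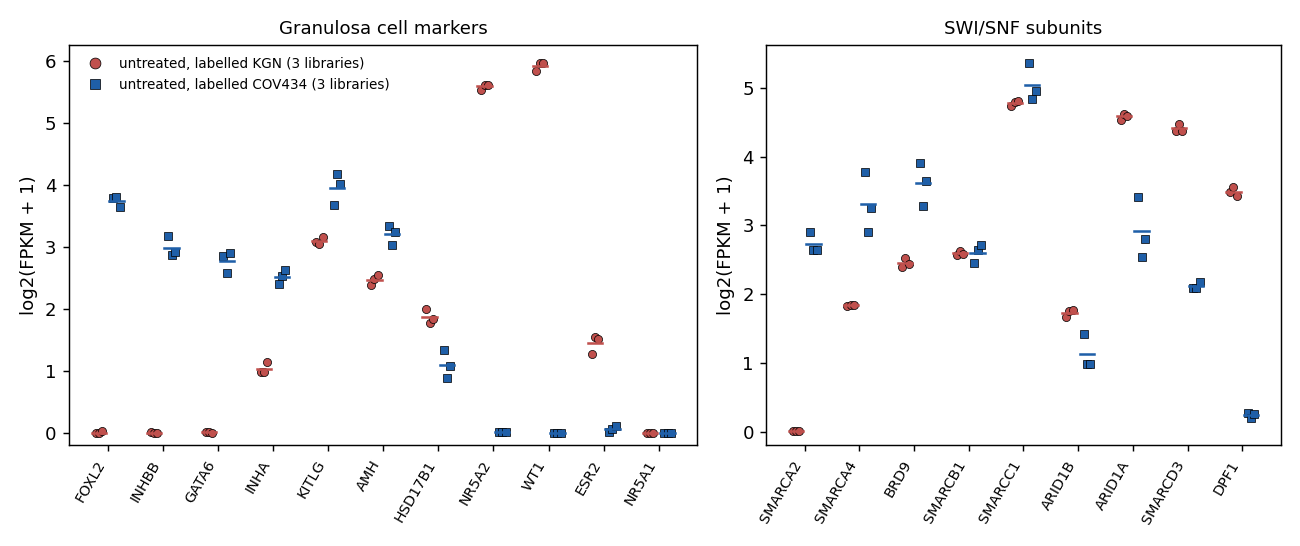
Expression of granulosa cell markers (left) and SWI/SNF subunits (right) in the 6 untreated libraries; the y axis is log2(FPKM + 1), each point is 1 library, circles are labelled KGN, squares are labelled COV434, and short lines are means of 3. FOXL2, INHBB, GATA6 and SMARCA2 sit at the floor in KGN only, WT1 and NR5A2 in COV434 only, and SMARCB1 overlaps between the lines.

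The promoters of 4 of these genes are shown because each gene was silent, or nearly so, in one line and expressed in the other; CG dinucleotides, the letters at which human DNA can be methylated, are in capitals. DNA methylation was not measured in this study, so the letters describe the sequence alone. Each stretch covers the 250 bases before the transcription start, 5′ to 3′ on the strand of the gene, from RefSeq on GRCh38.p14: FOXL2 chr3:138947138-138947387 (minus strand), SMARCA2 chr9:2015097-2015346 (plus), WT1 chr11:32435540-32435789 (minus) and NR5A2 chr1:200027460-200027709 (plus).
FOXL2: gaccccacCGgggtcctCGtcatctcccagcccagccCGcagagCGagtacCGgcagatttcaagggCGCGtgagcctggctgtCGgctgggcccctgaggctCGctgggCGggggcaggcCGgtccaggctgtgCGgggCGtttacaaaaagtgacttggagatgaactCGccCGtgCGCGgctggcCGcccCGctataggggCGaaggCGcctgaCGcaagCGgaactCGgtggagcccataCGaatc
SMARCA2: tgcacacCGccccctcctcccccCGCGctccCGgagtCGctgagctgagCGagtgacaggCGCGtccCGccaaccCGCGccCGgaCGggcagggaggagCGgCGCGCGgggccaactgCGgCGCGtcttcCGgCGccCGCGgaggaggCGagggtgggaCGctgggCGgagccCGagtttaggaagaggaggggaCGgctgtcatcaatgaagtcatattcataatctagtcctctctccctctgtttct
WT1: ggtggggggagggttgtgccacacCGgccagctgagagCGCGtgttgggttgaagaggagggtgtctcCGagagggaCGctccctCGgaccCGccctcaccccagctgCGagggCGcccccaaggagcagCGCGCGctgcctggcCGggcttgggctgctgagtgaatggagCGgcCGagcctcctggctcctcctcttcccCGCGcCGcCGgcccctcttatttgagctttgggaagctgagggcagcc
NR5A2: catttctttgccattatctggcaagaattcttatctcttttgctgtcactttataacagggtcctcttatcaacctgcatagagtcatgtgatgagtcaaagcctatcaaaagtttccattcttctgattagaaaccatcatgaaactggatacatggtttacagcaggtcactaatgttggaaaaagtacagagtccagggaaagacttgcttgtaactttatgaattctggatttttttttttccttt
Counted on these letters, CG occurred 25 times upstream of FOXL2, 29 times upstream of SMARCA2 and 19 times upstream of WT1, but 0 times upstream of NR5A2, while 93.6% of 27305 RefSeq promoter windows of the same length held at least 1. The start used was 1 RefSeq start per gene, and that of SMARCA2 lies well inside the gene span given above. The 4 genes were chosen as examples, and nothing is drawn from their counts about other promoters.

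Other SWI/SNF subunits differed in both directions. Of 25 subunit genes tested, both ATPases included, 10 were higher in KGN, 6 higher in COV434 and 9 were not called, with a median log2 difference of 0.23 against -0.02 over all tested genes. The 64% called was near the 69.0% of all tested genes. The neuron-type subunit DPF1 was at 10.2, 10.7 and 9.76 FPKM in KGN and 0.201, 0.147 and 0.199 FPKM in COV434, and SMARCD3, a subunit known from heart and muscle, at 19.7, 21.3 and 19.8 and 3.26, 3.24 and 3.51 FPKM. ARID1A, the largest subunit of the BAF complex and a frequent target of mutation in ovarian cancer, was higher in KGN by 1.67 (SE 0.22, adjusted p = 5.06e-04). Next in this order were BCL7A, BICRAL, ARID1B, SS18L1, ARID2, DPF2 and BCL7C, with log2 differences from 0.93 to 0.43. COV434 had more BRD9, the bromodomain subunit of the non-canonical complex, more BCL7B and more SMARCD1, with log2 differences of -1.16, -0.97 and -0.71. PHF10 was the sixth gene higher in COV434, with a difference of -0.20 that lost its call under 9 of 15 alternatives and turned its sign under 1, quantile normalization. SMARCB1, the subunit lost in rhabdoid tumors, was at 4.96, 5.2 and 4.97 FPKM in KGN and 4.48, 5.24 and 5.58 FPKM in COV434, overlapping, with a log2 difference of -0.01 (SE 0.093, adjusted p = 0.939) and a 95% interval from -0.23 to 0.21, and its sign depended on the scaling. SMARCC1, SMARCC2, SMARCD2, PBRM1, ACTL6A, SS18, BICRA and BRD7 did not pass the test either, with differences between -0.27 and 0.36, and the signs of SMARCC1, SMARCD2 and PBRM1 depended on the scaling. SMARCE1, at 0.529 and 0.241 FPKM, shares 90.0% of its span with a read-through gene on the same strand, so reads could not be assigned to it reliably. ACTL6B, DPF3, BCL11A and BCL11B, subunits of neural, muscle or blood cells, had means of at most 0.0922 FPKM.

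Across all genes the 2 lines were far apart. Of 13098 genes, 9039 differed at an adjusted p under 0.05, 4271 higher in KGN and 4768 higher in COV434, and the 3 libraries of each line did not overlap for 9704 genes (74.1%). Every count over a gene list is to be read beside the 69.0% of all tested genes that differed. By direction, 32.6% of all tested genes were higher in KGN and 36.4% in COV434. Which direction held more calls depended on the scaling, with 4565 higher in KGN and 4518 in COV434 under median-ratio scaling, 4899 and 4152 under quantile normalization and 5224 and 4064 with voom. A difference shown to exceed 2-fold, by limma's treat, was found for 3084 genes (23.5%), 1315 (10.0%) higher in KGN and 1769 (13.5%) higher in COV434. Voom, run on the recovered reads, gave 2028 and 1813 genes for the same rule. The median absolute difference was 0.68 on the log2 scale, and differences over 16-fold were seen for 141 genes higher in KGN and 292 higher in COV434. The same line difference was read from the 6 libraries after 77-39, which share none with the untreated ones: of the 3084 genes beyond 2-fold, 3081 had the same sign there and 3064 also passed the test of that set, in which 71.0% of all genes passed and 75.4% did not overlap between the lines. Among the 9039 genes called at any size, 8860 (98.0%) kept the sign, and 17 were called in the opposite direction after treatment.

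**Figure D2:**
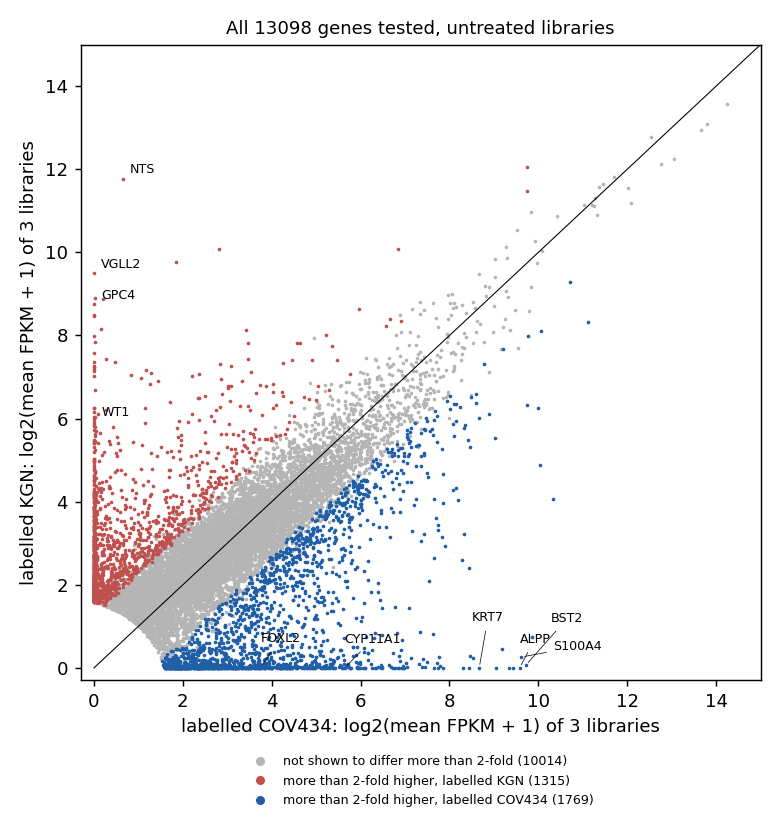
Mean expression of each of the 13098 tested genes in the 3 untreated libraries labelled COV434 (x axis) and KGN (y axis), as log2(mean FPKM + 1); colored points are the 1315 and 1769 genes shown to differ by more than 2-fold, and the line marks equal expression. Points along the 2 axes are genes expressed in one line and close to 0 in the other.

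The largest differences were on-off differences. In KGN the most extreme protein-coding gene was NTS, the precursor of the gut and brain peptide neurotensin, at 3532, 3272 and 3658 FPKM against 0.504, 0.378 and 0.807 FPKM in COV434. The transcriptional cofactor VGLL2 followed at 678, 769 and 722 FPKM with no read in COV434 (at least 9017-fold), then TMEM100, a membrane protein of arterial endothelium and lung, at 496, 471 and 470.1 against 0, 0 and 0.0617 FPKM. GPC4, a heparan sulfate proteoglycan, was at 417, 442 and 433 FPKM and had no read in COV434. The lipid carrier APOE (470.1 FPKM against 0.155), the endoderm and endothelial factor SOX17 (357 FPKM against 0), FAM9C, the G-protein regulators RGS5 and RGS4, the small heat shock protein CRYAB (869 FPKM against 2.61), the serine protease PRSS12 and the desmosomal cadherin DSC1 made up the rest of the 12, with log2 differences down to 7.58. In 6 of these 12 genes COV434 had not a single read.

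In the other direction stood BST2 (tetherin, an interferon-induced membrane protein), at 0, 0 and 0.136 FPKM in KGN and 512, 1101 and 909 FPKM in COV434. The alkaline phosphatases ALPP and ALPI reached 680.1, 768 and 840.5 and 708, 638 and 711 FPKM in COV434 and had no reads in KGN. They belong to a cluster of genes of similar sequence, and how the authors' counting divided reads within it is uncertain. Among 3 calcium-binding S100 proteins, S100A4 was at 0.158, 0.286 and 0.149 FPKM in KGN and 566, 867 and 912 FPKM in COV434, while S100A11 and S100A6 had no reads in KGN and means of 644 and 530.0 FPKM in COV434. BASP1, a membrane protein first known from axons and a partner of WT1, was at 0.381 and 583 FPKM. The keratins KRT7 and KRT17, the antiviral proteins IFITM3 and IFITM1 (again of similar sequence) and TM4SF1 completed the 12. IFITM1 lies wholly inside the annotated span of IFITM2, so part of its reads may have been left unassigned. COV434 replicate 1 was the lowest of its line for BST2, the 3 S100 genes, both IFITM genes and TM4SF1, and the highest for BASP1, but far above every KGN library in each case.

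**Figure D3:**
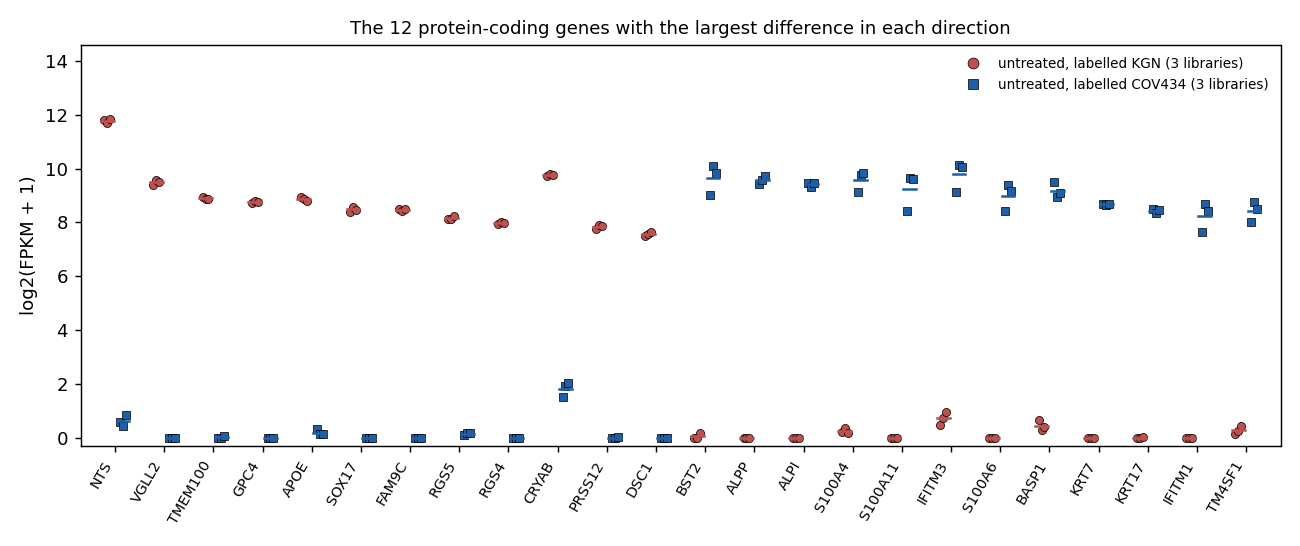
Expression, as log2(FPKM + 1), of the 12 protein-coding genes with the largest difference in each direction; each point is 1 untreated library, circles are labelled KGN, squares are labelled COV434, and short lines are means of 3. The 24 genes were chosen among those without overlap between the 3 and 3 libraries, so their separation follows from the choice.

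Genes with at most 3 reads in every library of one line and a mean of at least 10 FPKM in the other numbered 118 for KGN (0.901% of the tested genes) and 170 for COV434 (1.3%). Protein-coding genes made up 84 of the 118 and 152 of the 170, beside 83.1% of all tested genes. Of the 118 and the 170, 82 and 90, respectively, had no read at all in the other line. After 77-39 the same rule held for 93 of the 118 and 146 of the 170. The highest of these genes in KGN, beyond those named above, were DSG1, a desmosomal cadherin of epidermis (164 FPKM, at least 4807-fold), and the lectin CHODL (153 FPKM). In COV434 they were SLPI, a protease inhibitor of mucosal secretions, at 65.8, 352 and 274 FPKM and IFITM2 (213 FPKM). By the family column of the authors' table, which also counts the RNA-binding protein LIN28B, transcription factors were 10 of the KGN-only genes, namely SOX17, WT1, BARX1, NR5A2, NKX2-5, RORB, LIN28B, MKX, TUB and ID4, and 8 of the COV434-only genes, namely TSC22D3, ATOH8, FOXF2, ELF3, SNAI2, HOXA11, FOXL2 and FOXQ1; apart from those in the lists, they are named after their values were seen. Transcription factors were thus 8.47% of the KGN-only and 4.71% of the COV434-only genes, near the 6.61% of all tested genes. BARX1 (54.6 FPKM), a stomach and tooth homeobox factor, and NKX2-5 (28.6 FPKM), a heart homeobox factor, are not known as granulosa cell genes. FOXF2 and FOXQ1, 2 further forkhead factors, were at 25.1 and 10.2 FPKM in COV434.

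Most of the epithelial genes that could be tested were higher in COV434. Those near 0 in KGN reached the expression limit only through COV434, so the share called was largely set by the limit. Of 24 listed, 14 were tested, 13 were higher in COV434 and 1 in KGN, with a median log2 difference of -5.09 (all genes, -0.02), and their summed FPKM was 9.08, 9.12 and 9.44 in the KGN libraries and 1635, 1434 and 1584 in the COV434 libraries. The simple-epithelium keratins KRT7, KRT8 and KRT18 had means of 406, 221 and 201 FPKM in COV434 and at most 0.029 FPKM in KGN. KRT17, a keratin of basal cells, was at 360.1, 324 and 349 FPKM in COV434 with 1 read in KGN. The 1 gene in the opposite direction was OCLN, a tight junction protein, at 5.71, 5.49 and 6.09 FPKM in KGN and 0, 0.0522 and 0.0354 FPKM in COV434. EPCAM, CDH1 (E-cadherin), ESRP1 and GRHL2, which define many carcinoma cells, had means of at most 0.0519 FPKM in both lines, and the desmosomal cadherins DSC1 and DSG1 of epidermis, which are not on the list, were high in KGN with no read in COV434.

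Mesenchymal and matrix genes differed in both directions. All 34 tested members of 48 listed were called, 23 higher in COV434 and 11 higher in KGN (median -2.01), where 69.0% of all tested genes differed. Some, such as COL5A1 and COL5A2, reached the expression limit only through 1 line, so their being called was largely set by the limit. VIM, the intermediate filament of mesenchymal cells, was at 0.899, 1.17 and 1.48 FPKM in KGN and 55.2, 64.2 and 71 FPKM in COV434. TIMP1, a metalloproteinase inhibitor, had 1 read in KGN and 63.8, 224 and 209.8 FPKM in COV434, with replicate 1 well below its partners, and TIMP3 was at 0.29 and 70.9 FPKM. Collagen chains were split between the lines, since COL5A1 was at 0.0386, 0.0471 and 0.0454 FPKM in KGN and 68.8, 37 and 48.1 FPKM in COV434 whereas its partner chain COL5A2 was at 48.7, 49.8 and 48.9 and 0.105, 0.0553 and 0.16 FPKM. A similar pair was COL6A1 (log2 difference -2.05) and COL6A2 (3.03), 2 chains of the same trimer, which are named after their values were seen. KGN further had more THBS1 (158 FPKM against 6.19), an adhesive matrix protein, and more of the smooth muscle genes ACTA2 (35.7 against 2.13) and TAGLN (16.4 against 0.54).

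Few neural genes were expressed, with 6 of 33 tested. Of these, 5 were higher in KGN and 1 in COV434, beside 32.6% and 36.4% of all tested genes. Neural genes nearly absent from a line reached the expression limit only through the other line, so their calls were largely set by the limit. STMN2, a microtubule regulator of neurons, was at 74.1, 76.9 and 76.6 FPKM in KGN with no read in COV434, and CRMP1 and DPYSL3 were at 12.4 and 4.09 FPKM in KGN and under 1 FPKM in COV434. The adhesion molecule L1CAM had the opposite order, with 0.126, 0.298 and 0.217 FPKM in KGN and 151, 90.3 and 103 FPKM in COV434. SOX2, NEUROD1 and INSM1, which define neural or neuroendocrine cells, had means of at most 0.0887 FPKM. Of 14 blood cell markers none reached the limit, with summed levels of 1.66, 1.7 and 1.71 FPKM in KGN and 0.674, 0.297 and 0.595 FPKM in COV434, with CD4 highest at a mean of 1.21 FPKM in KGN, PTPRC at 0.226 FPKM there and CD3E and HBB without a read. Endothelial markers gave 2 tested genes of 10, of which TEK, the angiopoietin receptor, was higher in KGN (6.12 FPKM against 0.0125), while the defining PECAM1, VWF and KDR had means of at most 0.144 FPKM and CDH5 reached 1.98 FPKM in COV434.

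Steroid genes were mostly higher in COV434, with 12 of 17 tested genes higher there, 4 higher in KGN and 1 not called (median -0.84). That is 94.1% called, against 69.0% of all tested genes. Steroid genes nearly absent from KGN reached the expression limit only through COV434, so their calls were largely set by the limit. CYP11A1, the side chain cleavage enzyme that starts steroid synthesis, had no read in KGN and was at 52.2, 46.5 and 48.1 FPKM in COV434. The aldo-keto reductases AKR1C3 (0.0339 FPKM in KGN against 13.5) and AKR1C1 (0.266 against 14.1), whose sequences are nearly alike so that reads may be split between them, and the sulfatase STS (1.17 against 18.5) had the same order. KGN had more HSD17B12, FDXR, HSD17B4 and HSD17B1, by 1.36, 1.25, 0.89 and 0.77 on the log2 scale. STAR, which brings cholesterol to the side chain cleavage enzyme, and CYP17A1, CYP19A1, HSD3B1 and HSD3B2, which act after it, had few reads or none in either line, with means of at most 0.278 FPKM.

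Among 12 tested transcription factors of gonad development, 6 were higher in KGN, 5 higher in COV434 and 1 was not called. That is 91.7% called, against 69.0% of all tested genes. Factors nearly absent from a line reached the expression limit only through the other line, so their calls were largely set by the limit. The orphan receptors NR2F1 and NR2F2, known from interstitial and mesenchymal cells, were at 169.7, 177 and 170.3 and 47.9, 49.6 and 47.8 FPKM in KGN and 10.4, 9.23 and 10.4 and 13.5, 8.84 and 10.3 FPKM in COV434. LHX2, with 10.2 FPKM in KGN and 1.63 FPKM in COV434, had the same order as WT1. TBX3, a repressor known from limb and breast, was at 1.27, 1.36 and 1.14 FPKM in KGN and 41, 22.8 and 30.5 FPKM in COV434, and SOX4, a factor of progenitor cells, at 0.461, 0.41 and 0.313 and 9.38, 5.74 and 6.05 FPKM. SOX9 and DMRT1, which mark the testis pathway, had means of at most 0.00997 FPKM.

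HOX genes, which record position along the body axis, differed in each cluster, where 69.0% of all tested genes differed. HOX genes nearly absent from KGN reached the expression limit only through COV434, so their calls were largely set by the limit. In the HOXA cluster, 4 of 6 tested genes were higher in COV434, led by HOXA11 (11.5, 14.7 and 19.2 FPKM), HOXA10 (9.28, 10.6 and 9.5 FPKM) and HOXA13 (7.64, 7.1 and 8.23 FPKM), which had between 0 and 6 reads in KGN. The other 2, HOXA4 (1.97 FPKM in KGN against 1.18) and HOXA6 (1.37 against 0.775), were called higher in KGN, but neither was called under quantile normalization or a replicate block. HOXB7 (0.189 FPKM in KGN against 21.8), HOXB2 and HOXB6 showed this order too, among 4 of 5 tested genes of their cluster. In the HOXC cluster KGN had more HOXC8 (9.34 against 0.791 FPKM), HOXC4 and HOXC6 and COV434 more HOXC11, HOXC13 and HOXC10, while HOXD8 was higher in KGN and HOXD9 in COV434. HOX genes of a cluster overlap in the annotation, so part of their reads may have been left unassigned. C2H2 zinc finger factors, taken from the transcription factor families of the authors' table, were 206 of 365 (56.4%) higher in KGN and 59 (16.2%) higher in COV434, with a median log2 difference of 0.45 and of 0.41, 0.50 and 0.83 under quantile, median-ratio and voom scaling. Over all tested genes the 2 shares were 32.6% and 36.4%.

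Oncofetal and imprinted genes gave 14 tested members, 9 higher in COV434 and 4 higher in KGN. That is 92.9% called, against 69.0% of all tested genes. Members nearly absent from a line reached the expression limit only through the other line, so their calls were largely set by the limit. H19, an imprinted noncoding RNA of the fetus, had no read in KGN and 101, 126 and 139 FPKM in COV434. PHLDA2 (0.133 FPKM in KGN against 48.5), CDKN1C (0.455 against 17.2) and IGF2BP1 (0.167 against 6.73) were of the same order. KGN expressed the developmental regulator LIN28B (15.9, 16.7 and 17.8 FPKM, no read in COV434), the stem cell factor SALL4 (15.2, 14 and 13.8 against 0.303, 0.163 and 0.269 FPKM), the proteoglycan GPC3 (12.1 FPKM against 0) and the imprinted SNRPN (4.76 against 0.0117 FPKM). Cancer-testis genes, silent in most adult tissues, were 5 higher in KGN and 6 in COV434 of 11 tested, where 69.0% of all tested genes differed. Those nearly absent from a line again reached the limit only through the other line. MAGEA4 was at 136, 134 and 119.9 FPKM and PRAME at 82.5, 87.1 and 85.5 FPKM in KGN, with no read and 7.77, 6.2 and 8.11 FPKM in COV434, and CT45A1 and MAGEA1 were higher in KGN as well. MAGEA6 (40.5, 46.2 and 50.1 FPKM), MAGEB2 (29.8, 39.4 and 42.7), MAGEA12 (24.8, 25.7 and 30.6) and PAGE1 (14.7, 38.4 and 25) were on in COV434 and had at most 6 reads in KGN; MAGEA and CT45 copies are near-identical, so their division is uncertain. Of the germ and pluripotent cell markers 3 of 16 were tested, and PRDM1 and POU5F1, the latter with known processed copies, were higher in COV434, with log2 differences of -2.31 and -1.28.

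In the G1 control of the cell cycle, CCND1 was nearly absent from KGN, while CCND3 was expressed in both lines and higher in KGN. CCND1 was at 0.235, 0.351 and 0.41 FPKM in KGN and 44.9, 25.2 and 31.1 FPKM in COV434, CCND3 at 162, 174 and 173 and 28.7, 27.8 and 30.3 FPKM, and CCND2 at 0.0127 and 0 FPKM. CDK6, a kinase partner of D cyclins, was at 0.0264, 0.0143 and 0.0166 FPKM in KGN and 5.66, 5.85 and 5.08 FPKM in COV434. The inhibitors CDKN1C and CDKN2C were higher in COV434, with log2 differences of -3.65 and -2.34, and CDKN2D and the ubiquitin ligase MDM2 were higher in KGN by 1.27 and 1.78, as was RBL2, a relative of RB1, by 0.76. Over the list of 22 genes, 12 of 21 tested were higher in COV434, 6 higher in KGN and 3 not called. The share called was 85.7%, against 69.0% of all tested genes. CCND1 and CDK6, nearly absent from KGN, reached the expression limit only through COV434, so their calls were largely set by the limit.

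Several receptor tyrosine kinases were expressed in one line and nearly absent from the other. EGFR was at 0.0129, 0.0374 and 0.0203 FPKM in KGN and 57, 36.8 and 39.7 FPKM in COV434, MET at 0.0153, 0.00832 and 0.0217 and 34, 39.8 and 36.1 FPKM, ROR2 at 0.00644 and 18.8 FPKM and MST1R at 0.112 and 15.5 FPKM. The ephrin receptors EPHA7 and EPHA5 reached 52.2, 54.9 and 58.9 and 27.9, 31 and 33.2 FPKM in KGN without a read in COV434. ERBB4 was at 14.5, 14.8 and 15.3 FPKM in KGN and 0.0881, 0.0633 and 0.0459 FPKM in COV434, and MERTK, which clears apoptotic cells, at 6.75 and 0.0293 FPKM. In total 10 of 25 tested receptors were higher in KGN, 13 higher in COV434 and 2 not called, which is 92% called against 69.0% of all tested genes. Receptors nearly absent from a line reached the expression limit only through the other line, so their calls were largely set by the limit.

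Of 32 tested genes of TGF-beta family signaling, 17 were higher in COV434, 9 higher in KGN and 6 not called, beside 36.4% and 32.6% of all tested genes in these directions. COV434 had the ligand BMP2 (88.3, 63.6 and 60.4 FPKM against 0.0899, 0.195 and 0.155 in KGN), the activin-binding FSTL3 (319 against 8.26 FPKM), the secreted FSTL1 (39 against 0.166 FPKM) and the pseudoreceptor BAMBI (13.2 FPKM against 0). KGN had the BMP receptors BMPR1B (43.2, 43.3 and 43.2 FPKM against 0.22, 0.317 and 0.227) and BMPR2 (13.7 against 2.71), the latent TGF-beta binding LTBP1 (11.1 against 0.011) and SMAD9 (2.9 against 0.194). Among 26 tested genes of the WNT pathway, 10 were higher in KGN and 12 in COV434. That is 84.6% called, against 69.0% of all tested genes. In both lists, genes nearly absent from a line reached the expression limit only through the other line. Their calls were thus largely set by the limit. FZD8, a WNT receptor, was at 168, 162 and 158 FPKM in KGN and 0.314, 0.525 and 0.341 FPKM in COV434, the secreted SFRP4 at 35.5 FPKM and 0, and RSPO3 at 6.71 and 0.0689 FPKM. WNT5A (0.203 FPKM in KGN against 31.1), WNT7B (0.0254 against 12.9), WNT6 (0.533 against 17.6) and the receptor FZD6 (0.0217 against 13.1) had the reverse order. CTNNB1, the coactivator of the canonical pathway, is named after its values were seen and did not pass the test (-0.10 (SE 0.14, adjusted p = 0.545)).

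Genes of the Hippo pathway and of TEAD binding were mostly higher in COV434, 14 of 23 tested, with 5 higher in KGN. The share called was 82.6%, against 69.0% of all tested genes. Members nearly absent from KGN, such as AMOTL2, reached the expression limit only through COV434, so their calls were largely set by the limit. AMOTL2 had 1 read in KGN and 45.1, 29.4 and 34 FPKM in COV434, CRIM1 was at 0.351 and 46 FPKM, and F3, the tissue factor that starts coagulation, at 0.158 and 14.9 FPKM. CYR61 and CTGF, 2 matricellular genes that are often read together as targets of YAP1, went in opposite directions, with CYR61 at 2.81, 2.24 and 2.65 FPKM in KGN and 72.1, 71.5 and 79.8 FPKM in COV434 and CTGF at 12, 11.4 and 13 and 0.955, 1.56 and 1.3 FPKM. YAP1 itself, named after its values were seen, was at 27.7, 27.3 and 29 FPKM in KGN and 168, 147 and 139 FPKM in COV434. TEAD2, FJX1 and the kinase LATS1 were higher in KGN by 1.02, 1.02 and 0.74 on the log2 scale.

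Interferon and MHC class I genes were higher in COV434 for 29 of 34 tested genes, against 2 higher in KGN (median -1.88). Over all tested genes the 2 shares were 36.4% and 32.6%. Genes nearly absent from KGN, such as BST2 and IFITM1, reached the expression limit only through COV434, so their calls were largely set by the limit. Their summed FPKM was 794, 769.6 and 762 in KGN and 4531, 7821 and 7066 in COV434, the lowest of the latter in replicate 1. Besides BST2, IFITM3 and IFITM1, the leading gene was IFITM2, with no read in KGN and 132, 249.7 and 257 FPKM in COV434. The 2 genes higher in KGN were HLA-F (6.38 against 1.07 FPKM) and the peptidase ERAP1 (4.19 against 3.07 FPKM), of which ERAP1 lost its call under 8 of 15 alternatives. HLA genes are polymorphic, and how their reads were aligned bears on these levels. Of 23 tested genes of NF-kB signaling and of the senescence-associated secretory phenotype, 15 were higher in COV434 and 6 in KGN. That is 91.3% called, against 69.0% of all tested genes, and here too genes nearly absent from KGN reached the limit only through COV434. IGFBP3 (0.128 FPKM in KGN against 41.3), the chemokine CCL5 (0.035 against 35.2), BIRC3 (0.014 against 10.5) and TNFAIP3 (0.353 against 13) led in COV434. IGFBP7 (396 against 141), TRAF1, TNFRSF12A and the kinase CHUK led in KGN.

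Of the 7 sirtuins, the family to which the drug target belongs, 42.9% were called, against 69.0% of all tested genes. SIRT3 was at 4.22, 4.35 and 4.3 FPKM in KGN and 3.7, 4.3 and 3.46 FPKM in COV434, overlapping, with a log2 difference of 0.14 (SE 0.089, adjusted p = 0.206), whose 95% interval ran from -0.08 to 0.35. SIRT6, a nuclear deacetylase, was at 7.45, 6.43 and 6.42 FPKM in KGN and 14.2, 13.3 and 15 FPKM in COV434 (-0.97 (SE 0.093, adjusted p = 1.05e-04)), and was the 1 member of 7 called higher in COV434. SIRT2 and SIRT4 were higher in KGN by 0.29 and 0.51 on the log2 scale, and SIRT1, SIRT5 and SIRT7 did not pass the test (differences between -0.14 and -0.03), their sign depending on the scaling.

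All 25 glycolysis genes were tested and 18 were higher in COV434, 4 higher in KGN and 3 not called (median -0.86). That is 88% called, against 69.0% of all tested genes. Glycolysis genes nearly absent from KGN, such as SLC16A3, reached the expression limit only through COV434, so their calls were largely set by the limit. The lactate exporter SLC16A3 was at 0.108, 0.117 and 0.0904 FPKM in KGN and 69.4, 55.9 and 62.1 FPKM in COV434, and the isoenzymes ALDOC (0.732 against 20.1) and ENO2 (0.406 against 8.81) and the kinase PGK1 (95.8 against 384) followed. KGN had more of the glucose transporter SLC2A3 (19.4 against 4.92), of PFKFB3, LDHB and ENO3, of which LDHB lost its call under 6 of 15 alternatives. Of 15 mitochondrially encoded genes, 6 were higher in COV434 (led by MT-ATP6, MT-CO3, MT-CO2 and MT-CO1, with log2 differences of -0.82, -0.71, -0.69 and -0.65, of which MT-CO2 lost its call under 8 of 15 alternatives and MT-CO1 under 10, with a turned sign under 1 more, quantile normalization) and 1, MT-ATP8, higher in KGN, where replicate 1 alone was at 558 FPKM and the others at 88.2 and 90.1 FPKM; without that replicate the log2 difference of MT-ATP8 was 1.62 in place of 2.49. The 6 calls became 3 under a pseudocount of 0.1, an expression limit of 0.1 FPKM, quantile normalization or without COV434 replicate 3, KGN replicate 2 or KGN replicate 3, and 0 with no expression limit. Over the 15 mitochondrially encoded genes 46.7% were called, below the 69.0% of all tested genes. Among enzymes of amino acid, folate and redox metabolism, 17 of 32 were higher in COV434 and 6 in KGN. The 71.9% called here was near the 69.0% of all tested genes. GPX1, a glutathione peroxidase, was at 0.113, 0.205 and 0.213 FPKM in KGN and 257, 490.4 and 364 FPKM in COV434, NQO1 at 7.28 and 164 FPKM, and the transporter subunits SLC7A5 and SLC3A2 at 79.2 and 46.7 FPKM in KGN and 854 and 273 FPKM in COV434. ALDH1A1, which makes retinoic acid, was at 52.7, 49.4 and 53.6 FPKM in KGN with 1 read in COV434, and GSTP1, ALDH1L2 and HMOX1 were also higher in KGN, by 2.41, 1.95 and 1.59 on the log2 scale.

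Genes used as references in qPCR differed between the lines about as often as other genes. Of 28 such genes, 15 were higher in COV434, 6 higher in KGN and 7 not called. The share called was 75%, near the 69.0% of all tested genes. Their median log2 difference of -0.56 shrank to -0.14 under quantile normalization without a change of sign. GAPDH, which counts among the glycolysis genes as well, was at 557, 656 and 643 FPKM in KGN and 1729, 1591 and 1731 FPKM in COV434 (-1.45 (SE 0.12, adjusted p = 5.34e-05)), named after its values were seen. SDHA, PGK1, TFRC and B2M differed most toward COV434, with log2 differences of -2.06, -1.99, -1.98 and -1.82, and CHMP2A and VPS29 were among those higher in KGN, by 0.67 and 0.52. The call of VPS29 was lost under 5 of 15 alternatives. RAB7A, at 114, 113 and 111 FPKM in KGN and 110.4, 105 and 117 FPKM in COV434, did not pass the test (0.02 (SE 0.092, adjusted p = 0.834)) and is named after its values were seen.

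**Figure D4:**
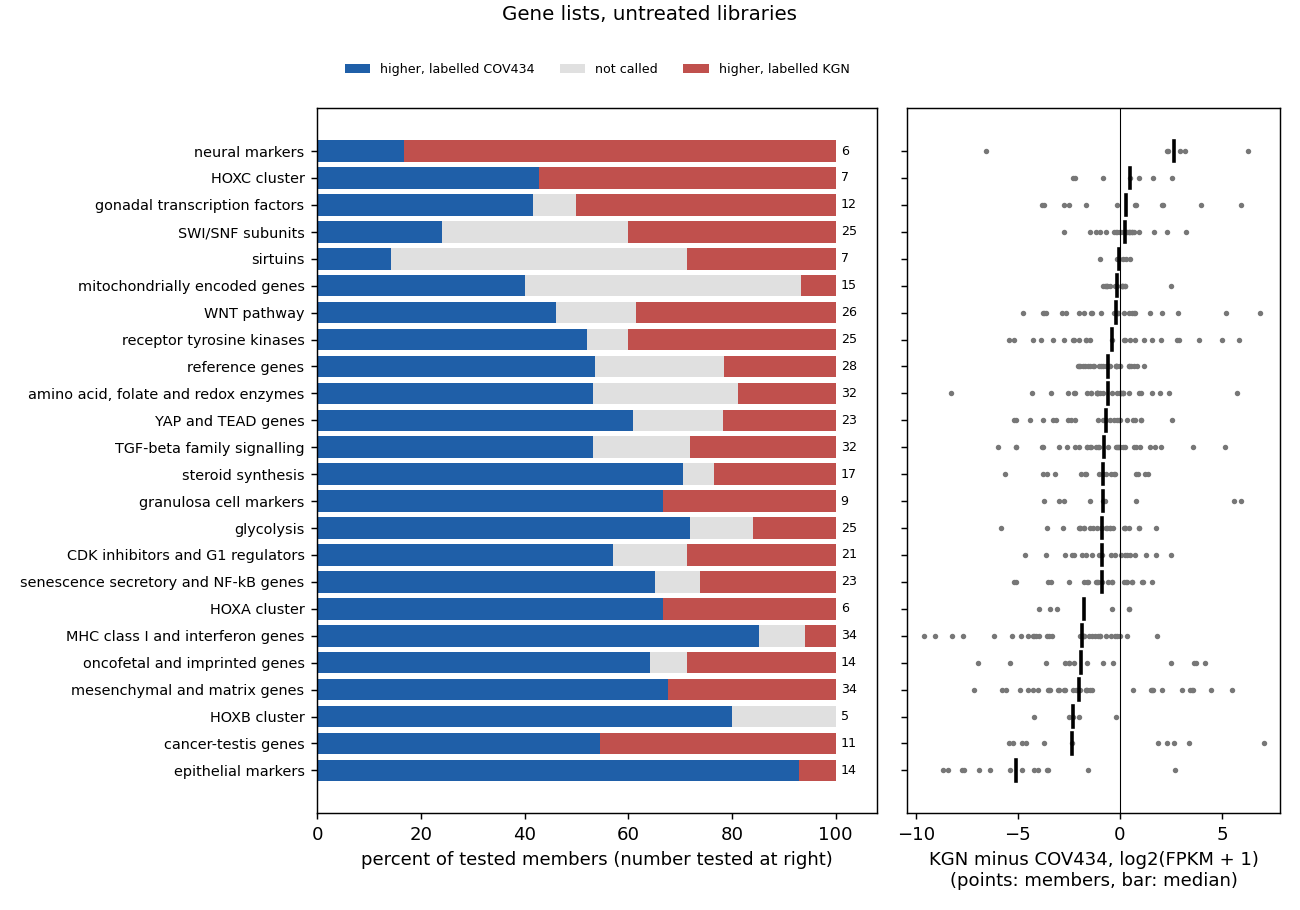
Gene lists with at least 5 tested members, ordered by their median difference; left, the percent of tested members higher in the libraries labelled COV434 (blue), not called (gray) and higher in those labelled KGN (red) at an adjusted p under 0.05, with the number tested at the right; right, the log2 difference of each member (points) and the median (bar). Epithelial markers lie farthest toward COV434 (13 of 14) and neural markers toward KGN (5 of 6), against 36.4% and 32.6% of all tested genes. Members nearly absent from a line reached the expression limit only through the other line, so these shares were largely set by the limit.

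Differences also followed position in the genome. Relative to the median of all genes on chromosomes 1 to 22 and X, genes on chromosome 14 were higher in KGN by a median of 0.53 log2 units, with 0.49 on chromosome 4 and 0.39 on chromosome 13, whereas the X chromosome was at -0.35 and chromosome 7 at -0.27. The medians after 77-39 were 0.57, 0.59, 0.45, -0.22 and -0.21 in the same order. On chromosome 14, 227 of 414 tested genes were called higher in KGN and 73 higher in COV434, against 32.6% and 36.4% overall. Of 237 windows of 10 Mb with at least 20 tested genes, 59 had a relative median above 0.3 and 42 below -0.3, and 210 kept their sign in the treated libraries. The lowest windows were 3 of the short arm and pericentromere of chromosome 5 (from 0 to 10 Mb, -1.27; from 30 to 40 Mb, -1.22; from 40 to 50 Mb, -1.22), 1 of the X chromosome (110 to 120 Mb, -1.07) and 1 of chromosome 6 (0 to 10 Mb, -0.95). The highest were on chromosome 15 (20 to 30 Mb, 1.92), chromosome 7 (80 to 90 Mb, 1.41), chromosome 9 (10 to 20 Mb, 1.23), chromosome 4 (180 to 190 Mb, 1.09) and chromosome 13 (30 to 40 Mb, 1.03). DNA copy number was not measured, and neighboring genes are not independent replicates, so the medians carry no test.

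**Figure D5:**
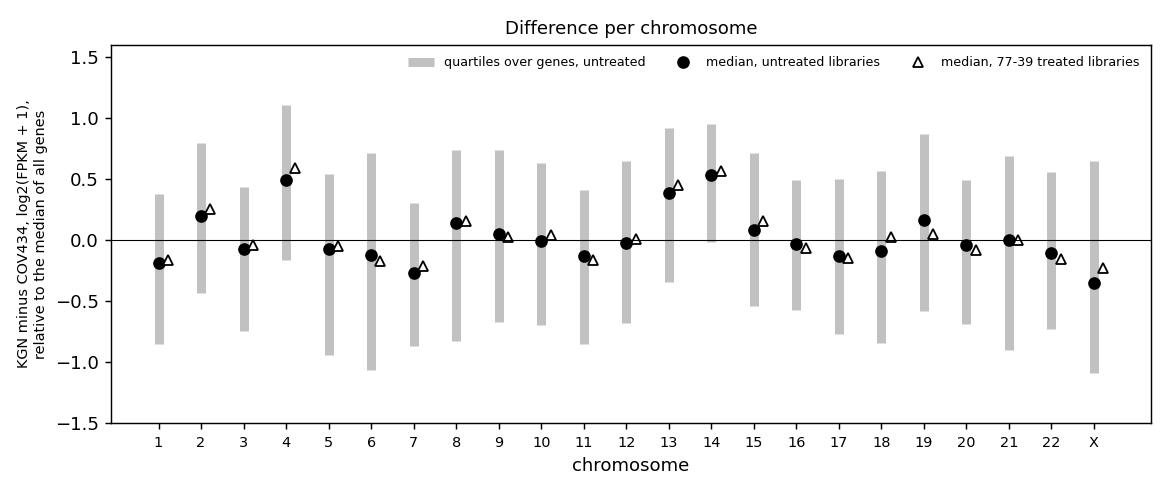
Median log2 difference between KGN and COV434 for the tested genes of each chromosome, relative to the median of all genes; filled circles are untreated libraries, open triangles the libraries after 77-39, and gray bars the quartiles over genes. Chromosomes 14, 4 and 13 lie highest and X lowest in the untreated libraries, and the quartiles of all chromosomes overlap.

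Some of the silent genes lay side by side. Runs of 3 or more consecutive tested genes detected in one line and at or under 3 reads in all libraries of the other numbered 27 for KGN (104 genes) and 20 for COV434 (74 genes). The longest, in KGN, held 13 genes between 24984864 and 25108352 of chromosome 15, with SNORD116 copies and PWAR6 of the imprinted region to which SNRPN belongs, inside the window with the highest median. A run of 6 genes on chromosome 7 (83363238 to 87059699), also expressed in KGN, held the guidance genes SEMA3E, SEMA3A and SEMA3D. COV434 expressed a run of 7 genes on chromosome 1 (151806071 to 153536244) that ended in S100A10, S100A11 and S100A6, a run of KRT80, KRT7, KRT7-AS and KRT86 on chromosome 12, and HOXB2, HOXB-AS3, HOXB5 and HOXB6 on chromosome 17. ALPP, ALPG and ALPI on chromosome 2 and MAGEA3, CSAG1, MAGEA12 and MAGEA6 on the X chromosome were in such runs too, and these are families of similar sequence.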

How the data were processed

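RNA of both cell lines was sequenced on an Illumina instrument, and the authors deposited 1 table of FPKM values (fragments per kilobase of gene length, scaled to library size) with 1 column per library. HISAT2 2.0.5 stands in the submitters' processing notes, which name mouse builds although every gene of the table is human. The counter is not given in the sources used here, and the extraction text of the labels speaks of retinas. All 58735 gene identifiers had coordinates in GENCODE 29 (GRCh38). Multiplying each FPKM by gene length and a factor per library gave whole reads for 100% of values (tolerance 0.05 reads), 15920486 to 18135160 reads per untreated library. These reads set the detection limit of 3 reads and served 1 alternative test. Such limits cover counting error only.

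Groups and replicate numbers were taken from the labels. Values were tested as log2(FPKM + 1) with limma 3.58.1 in R 4.3.3 (lmFit, eBayes with trend, two-sided) over the 6 untreated libraries with the line as the only factor, for genes averaging 1 FPKM or more, and p-values were adjusted by Benjamini-Hochberg over all 13098 genes. The function treat asked for more than 2-fold. Log2 differences are KGN minus COV434 on the log2(FPKM + 1) scale, which understates differences of low genes. The fit was tested on simulated data. Tables and plots were made with Python 3.11.15, numpy 2.4.6, pandas 2.3.3 and matplotlib 3.10.9.

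The text names the 12 protein-coding genes with the largest difference in each direction (adjusted p under 0.05, no overlap), every granulosa cell, SWI/SNF and sirtuin gene listed, up to 4 called members a direction of each other list, up to 3 HOX genes a direction of each cluster, the highest of the genes detected in one line only, and the 5 highest and 5 lowest windows of 10 Mb. A few genes that this rule would name are not reported here. Members and lists were chosen with earlier results of these data known. Alternatives were a pseudocount of 0.1, lower expression limits, median-ratio and quantile scaling, voom on recovered reads, protein-coding genes only, a fit of all 12 libraries, a replicate block and leaving out each library. List counts under these alternatives, and without COV434 replicate 1, were added after seeing the data.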

Additional observations from a re-analysis of the deposited data

Results flagged for a closer look

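The line difference was tested against itself across the 2 treatments, as an interaction over the 12 libraries (limma, Benjamini-Hochberg over all genes tested), and 461 of 13098 genes passed at an adjusted p under 0.05. Of the genes named in the text, 17 were among them, and for each the change below is the log2 difference between KGN and COV434 after 77-39 minus that in the untreated libraries. Among the redox and transport genes, the difference of HMOX1, which degrades heme, changed by 2.01 (from 1.59 to 3.60, adjusted p = 8.27e-04). SLC3A2 changed by 1.14 (adjusted p = 0.0053), SLC16A3 by 0.93 (adjusted p = 0.00336), ALDH1L2 by 0.75 (adjusted p = 0.0053) and NQO1 by -0.77 (adjusted p = 0.0251). Each of these 5 genes kept its order between the lines.

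The smooth muscle genes ACTA2 and TAGLN changed by -1.52 (from 3.56 to 2.04, adjusted p = 3.74e-04) and -0.74 (adjusted p = 0.0233), and the SWI/SNF subunits DPF1 and SMARCD3 by -0.87 (adjusted p = 0.00306) and -0.54 (adjusted p = 0.0219). PFKFB3, a regulator of glycolysis, changed by -0.83, from 0.92 to 0.09 (adjusted p = 0.0219), the closest of the 17 to a level value after treatment. Further values were 1.04 for STS, 0.88 for TNFAIP3 and 0.86 for H19 (adjusted p = 0.0244, 0.0404 and 0.0355), and -0.70 for PRAME, -0.69 for HOXC8, -0.48 for LIN28B and -0.47 for FDXR (adjusted p = 0.0259, 0.0273, 0.0267 and 0.0458). No difference between the lines turned its sign in these 17 genes.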

How the results depend on the processing

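The 9039 differences became 7925 to 10065 when 1 library was left out, with the highest count without COV434 replicate 1, and the 3084 beyond 2-fold became 2813 to 3427. In the treated libraries these fits gave 8199 to 9941. Genes higher in KGN numbered 6878 with a limit of 0.1 FPKM and 7346 without one, since more genes were tested. Voom called 2028 genes higher in KGN beyond 2-fold, 52.8% of its calls against 42.6%, and moved the median over all genes from -0.02 to 0.18 (median-ratio 0.03, quantile 0.09). At 5 FPKM 239 genes were detected in KGN only and 275 in COV434 only, since more genes met that bound, and with 0 reads required the latter were 90. Of 209 genes named or listed for naming, 182 kept direction and call under every alternative. WT1, FOXL2 and SMARCA4 were among them.

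Signs turned in a few small differences, and the cause was not tested. Under median-ratio, quantile and voom scaling SMARCB1 was at 0.048, 0.024 and 0.19, SMARCD2 at 0.049, 0.37 and 0.19 and SIRT1 at 0.027, 0.10 and 0.17. SIRT5 was at 0.022 under median-ratio scaling and 0.17 under voom, where PBRM1 and SIRT7 were at 0.024 and 0.016, and quantile normalization gave 0.15 for SMARCC1, 0.058 for PHF10 and 0.16 for MT-CO1. With 1 library left out, differences ran from -0.084 to 0.048 for SMARCB1, -0.12 to 0.075 for SMARCD2, -0.043 to 0.42 for ACTL6A, -0.087 to 0.057 for SIRT1 and -0.13 to 0.079 for SIRT5. At 5 FPKM the medians of chromosomes 18 and 19 were 0.13 and -0.076. The list median of the sirtuins was positive under all 3 scalings (0.03, 0.10 and 0.17), and that of the mitochondrially encoded genes was 0.07 under voom.

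A replicate block gave 8560 calls, 2940 beyond 2-fold. Same-numbered libraries of the lines had correlations of their deviations of -0.137, -0.130 and -0.083, and the labels do not say that a number marks a shared batch, so the numbers were not taken as pairs. Depth leaves genes of a few reads per library undecided.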
